A study of Mus musculus with 31 samples.

Results

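The livers of 5 Ames dwarf mice aged 22 months are set here against those of 5 wild-type mice aged 4 months, the oldest animals of the long-lived mutant against the youngest normal ones. These 10 arrays were chosen by their titles from 31, which hold dwarf and wild-type liver at 4, 10 and 22 months, 5 arrays a group and 6 for wild type at 22 months. By the animal names in the titles each array stands for 1 animal. Genotype and age change together in the comparison, and the 2 cannot be told apart within it. The comparison was therefore read beside differences measured on other arrays: dwarf against wild type at 10 months, and wild type at 22 against 10 months. All dwarf animals are Ames dwarf mice, by their titles, and have the dwarf genotype in every tissue. The labels give no sex, diet, litter or time of day, and no treatment is named for any group. The arrays hold 45037 probe sets, from which 15421 genes entered the tests, on the log2 scale. The comparison asks how far the old long-lived liver lies from the young normal liver, and in which genes it is alike.

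Ames dwarf mice lack growth hormone, prolactin and thyroid-stimulating hormone. Their liver therefore lacks the pulses of growth hormone that drive Igf1 and the male pattern of liver transcripts, and is low in thyroid hormone. These mice are small, insulin-sensitive and live longer than their normal siblings. In the ageing mouse liver, immune cells and acute phase transcripts commonly increase.

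The arrays were checked before the comparison. Igf1 signal was at most 10820 on the dwarf arrays of the series and at least 12150 on the wild-type arrays, as the genotype labels would have it. The summed signal of 23 secreted liver proteins ran from 643700 to 723000 in old dwarf and from 668600 to 837100 in young wild type. That of 6 pancreas acinar genes ran from 1479 to 2463 and from 2563 to 4629. Of these 6 only Cela1 was called, with signals of 773.2 to 1184 in old dwarf and of 1316 to 3532 in young wild type. Cela1 was also lower in dwarf than in wild type at 4, 10 and 22 months (-1.22, -1.30 and -1.54 log2). Correlations across probe sets ran from 0.9196 to 0.9312 within old dwarf, from 0.9011 to 0.9137 within young wild type and from 0.8919 to 0.9128 between them. Xist, the transcript of the inactive X chromosome, had a signal of 8414 on dwarf 22 months replicate 1 and at most 30.46 on the other arrays of the 2 groups. Eif2s3y, a gene of the Y chromosome, had 21.6 on that array and between 588.1 and 931.2 on the other 9. High Xist without Y-linked signal is the pattern of female tissue, so by these 2 genes 1 female and 4 male old dwarf livers stand against 5 male young wild-type livers. Xist was also above 1000 on wild type 22 months replicate 2 and dwarf 10 months replicate 4, where Eif2s3y was 5.551 and 44.28. Dwarf 10 months replicate 1 carried both signals, Xist at 5582 and Eif2s3y at 707.8, which goes against RNA of 1 ordinary male or female animal. Wild type 4 months replicate 4 stood apart in another way: its signal of the male-biased gene Hsd3b5 was 506.9 where the others ran from 10690 to 17420, and that of Igfbp1 was 6507 where the others reached at most 637. Results are given without these arrays where they differ.

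Over all genes, the distances of old dwarf and of old wild-type livers from young wild type overlapped, and the difference between them did not pass. The distance used is the root mean square log2 difference of an array from the mean of young wild type. It was 0.680, 0.662, 0.660, 0.681 and 0.706 on the 5 old dwarf arrays, and on the 6 old wild-type arrays it was 0.587, 0.659, 0.694, 0.678, 0.699 and 0.677. The old wild-type arrays span the old dwarf arrays but for the highest. Mean distances were 0.678 ± 0.019 (SD, n = 5) and 0.666 ± 0.041 (SD, n = 6), and young wild-type arrays lay 0.615 ± 0.019 (SD, n = 5) from the mean of the other 4. The difference between old dwarf and old wild type was 0.012 (exact two-sided permutation test, p = 0.688, adjusted p = 0.688 over 3 comparisons), and it was 0.05 (p = 0.013, exact permutation test) over genes above the 60th percentile of signal. Dwarf arrays at 4 months lay farther away than dwarf arrays at 22 months, at 0.728 ± 0.015 (SD, n = 5), a difference of -0.05 between the means (exact permutation test, p = 0.00794, the smallest possible, adjusted p = 0.0119). Wild-type arrays at 10 months lay nearer, at 0.574 ± 0.026 (SD, n = 5; p = 0.00794 by the exact permutation test, adjusted p = 0.0119).

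Also computed was the distance without genes of the 10-month genotype difference. Leaving these out lowers the distance of dwarf arrays by construction, and no ageing genes were left out for old wild type, so the values are a description. Without the 955 genes called between genotypes at 10 months, the old dwarf arrays lay 0.624 ± 0.023 (SD, n = 5) from young wild type over the remaining 14466 genes, beside 0.622 ± 0.018 (SD, n = 5) for the young wild-type arrays themselves and 0.666 ± 0.044 (SD, n = 6) for old wild type. The difference between old dwarf and old wild type was -0.0423 and did not pass (exact permutation test, p = 0.0823, adjusted p = 0.0823 over 3 comparisons). With 1 array left out it ran from -0.057 to -0.0345, and the unadjusted p of the exact permutation test was under 0.05 only without wild type 22 months replicate 1 (0.0159). Wild-type arrays at 10 months, which helped to choose the genes left out, had 0.579 ± 0.026 (SD, n = 5; difference 0.0453, exact permutation test, adjusted p = 0.0595), and dwarf arrays at 4 months had 0.656 ± 0.014 (SD, n = 5; difference -0.0318, adjusted p = 0.0595 by the same test).

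**Figure D1:**
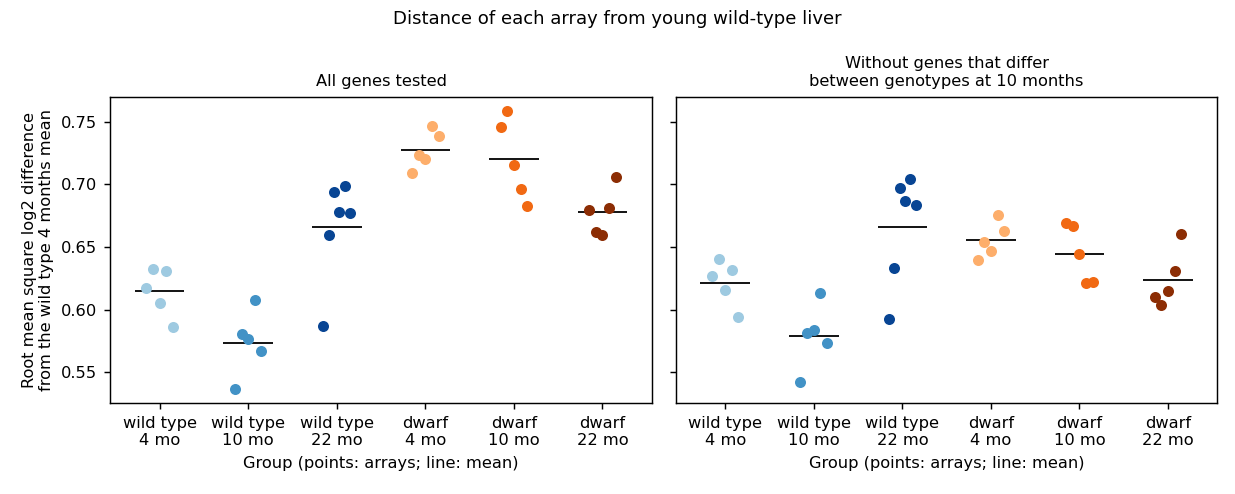
Distance of every array from the young wild-type mean, as the root mean square log2 difference over all 15421 genes (left) and over the 14466 genes not called between genotypes at 10 months (right). Points are arrays and lines are group means; the 5 old dwarf arrays sit between 0.660 and 0.706 on the left, among old wild type, and average 0.624 on the right.

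In single genes the comparison gave 1145 calls, 7.42% of the genes tested, by limma at an adjusted p under 0.05. Of these, 594 were higher in old dwarf (3.85%) and 551 lower (3.57%), and 219 (1.42%) and 153 (0.992%) of them differed 2-fold or more. The balance between higher and lower depends on the scaling: centring each array on its median, which moved the median gene from 0.04 to -0.05, gave 304 higher and 634 lower. The arrays of the 2 groups did not overlap for 1085 genes (7.04%). Without dwarf 22 months replicate 1, the array with Xist signal, 445 genes were higher and 420 lower, and without all 4 arrays of high Xist 471 and 458. Alike is used here for a difference that lies inside 1.5-fold in either direction by an equivalence test, that is, 2 one-sided tests adjusted over all genes. At this margin 4419 genes (28.7%) were alike. Of these, 33 were also called, with differences of at most 0.36 log2, which is a small difference measured well. The remaining 9890 genes (64.1%) were neither called nor alike, so for them neither a difference nor likeness was shown. Power to call a gene alike grew with its signal: 0.0259% of genes of lowest signal were alike when genes were ranked by signal and cut into 4 equal parts, then 8.09%, 44.9% and, at the highest signal, 61.6%.

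**Figure D2:**
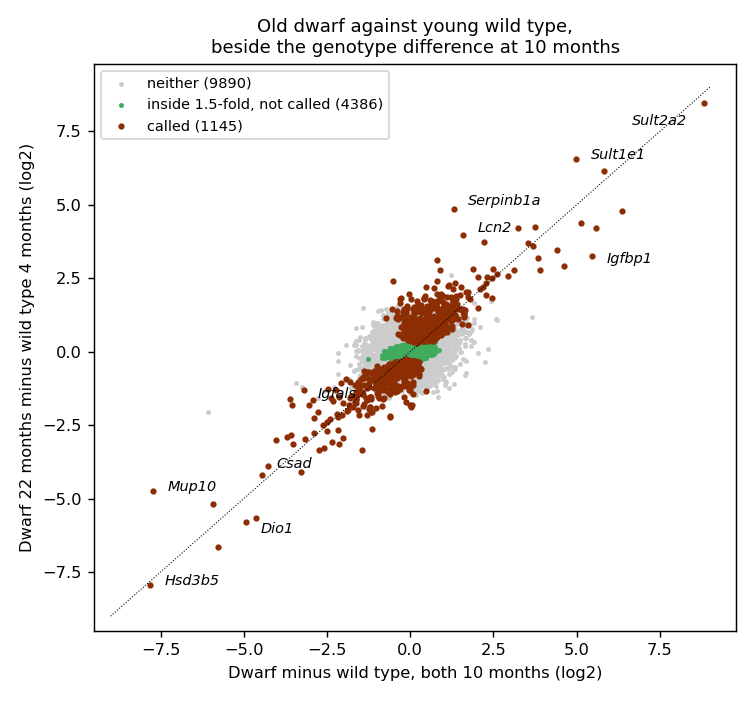
Difference between old dwarf and young wild type (vertical, log2) against the difference between dwarf and wild type at 10 months (horizontal, log2), which shares no array with it. Brown points are the 1145 genes called, green points the 4386 alike and not called, and grey points the 9890 others; Serpinb1a lies above the dotted line of equality and Mup10 and Igfals above it on the lower left.

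Igf1 and Igfals, 2 products of growth hormone action on the liver, separated the groups in every animal. Igf1, the main hormone through which the pituitary drives body growth, had signals of 3049, 4293, 10820, 3250 and 7468 in old dwarf and of 18040, 17860, 22600, 15170 and 17430 in young wild type. The groups did not overlap, and old dwarf was lower by 1.82 log2 (SE 0.27, adjusted p = 2.29e-05). Igfals, which holds circulating IGF-1 in a stable complex, had signals of 644.5, 1049, 2252, 669.8 and 1893 against 2791, 3011, 3208, 2417 and 3030. Its difference was -1.32 log2 (SE 0.24, adjusted p = 0.000393). In both genes dwarf 22 months replicates 3 and 5 were the highest of the old dwarf arrays. The same 2 genes differed by -3.04 and -3.20 log2 between dwarf and wild type at 10 months.

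Other contrasts are read beside these values: at an adjusted p under 0.05, 4.12% of genes were called between genotypes at 22 months, 3.98% between 22 and 4 months in wild type and 1.2% between 22 and 4 months in dwarf, and all of these share arrays with the comparison. The difference in Igfals was smaller than the 10-month genotype difference by 1.88 log2 (SE 0.34, adjusted p = 0.0325), 1 of 3 genes in the whole table for which that test passed. Its signal averaged 316 in dwarf at 4 months, and 1302 ± 733 at 22 months (SD, n = 5), a rise with age of 1.85 log2 within dwarf (adjusted p = 4.33e-05). Igf1 rose by 1.37 log2 over the same ages in dwarf (adjusted p = 0.00685). The stretch before the Igfals start site is printed because growth hormone acts on liver genes through STAT5, whose palindromic motif TTCNNNGAA occurs in it once, here in capitals. It is the first of 3 promoters listed for the gene by RefSeq on GRCm38.p6, 250 bases before the start, plus strand, chr17:24877594-24877843.

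Igfals: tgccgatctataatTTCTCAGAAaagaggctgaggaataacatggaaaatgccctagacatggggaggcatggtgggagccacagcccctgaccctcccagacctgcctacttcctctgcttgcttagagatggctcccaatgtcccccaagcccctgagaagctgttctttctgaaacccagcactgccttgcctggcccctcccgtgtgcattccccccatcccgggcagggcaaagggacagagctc

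The motif reads the same on both strands. It was present in 6.15% of the 12339 tested genes with a promoter of that length, in 18 of 462 genes called higher (3.9%), in 26 of 452 called lower (5.75%) and in 215 of 3636 alike and not called (5.91%). Of 26 named genes searched, 18 had a promoter, and only 2 of these held the motif, Igfals and Tsc22d1. The stretches before Igf1, Mup10, Hsd3b5 and Slco1a1 did not hold it.

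Other parts of the axis moved less, or the other way. Igfbp1, a binding protein repressed by insulin, had signals of 28050, 6600, 2562, 10690 and 4038 in old dwarf and of 585.2, 215.6, 637, 6507 and 425.4 in young wild type, where replicate 4 alone reached into the dwarf range. It was higher by 3.25 log2 (adjusted p = 0.00342), and Igfbp2, another binding protein, by 1.40 (adjusted p = 0.00527). Igf2r, the clearance receptor of IGF-2, was higher by 0.52 (adjusted p = 0.0237). The growth hormone receptor Ghr (-0.39, adjusted p = 0.0417), the transducer Stat5a (-0.84, adjusted p = 0.015) and Igfbp4 (-0.40, adjusted p = 0.0173) were lower. Without wild type 4 months replicate 1, and under quantile normalization, 3 of the list were lower. Stat5b, the phosphatase Ptpn1 and the receptor Igf1r were alike. The feedback inhibitors Cish (-0.85, adjusted p = 0.174) and Socs2 (-0.19, adjusted p = 0.682) passed neither test. In all, 3 of 17 tested members of this list were higher, 5 lower and 3 alike, with a median of -0.39 log2 beside 0.04 for all genes.

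**Figure D3:**
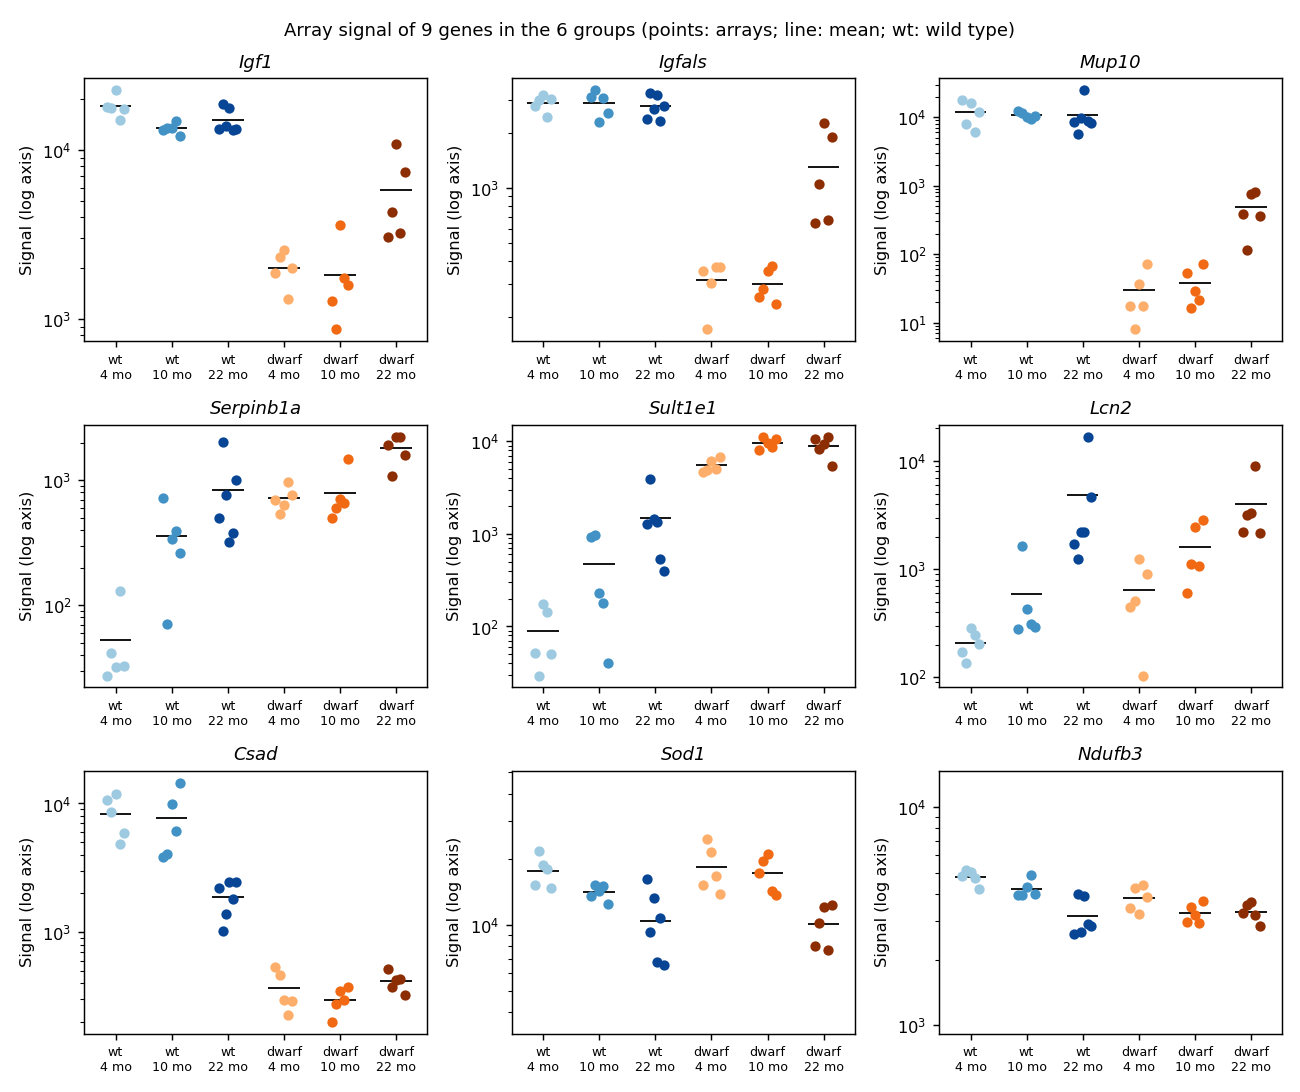
Array signal (log axis) of 9 genes in the 6 groups, wild type in blue and dwarf in brown, darker with age; points are arrays and lines are means. In dwarf at 22 months Igf1 reaches 10820 and Igfals 2252, below the wild-type arrays, and their means lie above those of the younger dwarf groups; wt stands for wild type.

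Sex-biased liver genes held the largest differences. In the mouse liver the male pattern of growth hormone pulses keeps one set of genes on and another off. The labels do not give sex, and by Xist and Eif2s3y dwarf 22 months replicate 1 is the only female liver of the 10. Hsd3b5, a steroid-metabolising enzyme of the male liver, had signals of 8.578, 12.91, 18.17, 22.59 and 13.41 in old dwarf against 10690, 15840, 17420, 506.9 and 15390 in young wild type. Its difference was -7.93 log2 (adjusted p = 1.89e-06). Slco1a1, an organic anion transporter, was lower by 6.66 (adjusted p = 9.36e-12), the elongase Elovl3 by 5.66 (adjusted p = 1.04e-07) and the fatty acid hydroxylase Cyp4a12a was 17.2-fold lower (adjusted p = 0.002). Cyp7b1, the oxysterol hydroxylase, had a difference of -3.88, and 2 further probe sets gave -3.43 and, without passing, -1.15. Mup10, a carrier of urinary pheromones, had signals of 382, 115.7, 753.1, 815.9 and 356.9 against 17740, 7852, 16180, 6130 and 11870, and was lower by 4.73 (adjusted p = 5.25e-10). Of 19 male-biased genes tested, 17 were lower, 0 higher and 0 alike, with a median of -2.89 log2. Cyp2u1 and Cspg5 passed neither test.

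The female-biased genes went the other way. Sult2a2, a sulfotransferase of steroids and bile acids, had signals of 27440, 23180, 9489, 27530 and 16350 in old dwarf and of 9.287, 81.69, 48.86, 14.03 and 91.16 in young wild type, a difference of 8.45 log2 (adjusted p = 7.22e-07). Sult1e1, the estrogen sulfotransferase, had 10590, 8248, 9268, 11000 and 5379 against 51.68, 29.52, 175.1, 144.1 and 50.58, a difference of 6.57 (adjusted p = 2.78e-10). The cytochromes Cyp2b13 (6.16) and Cyp4a14 (4.78), the hydroxy acid oxidase Hao2 (4.37) and the lipoprotein receptor Vldlr (2.58) were higher as well. Of 19 female-biased genes tested, 14 were higher, 0 lower and 0 alike, with a median of 2.54. That array had 27440 for Sult2a2 and 8.578 for Hsd3b5, inside or next to the range of the other old dwarf arrays, and without it 14 female-biased genes were still higher and 17 male-biased genes lower. Probes of the Cyp2b, Cyp4a, Sult2a and Mup families can bind transcripts of close relatives, so these values stand for the probe set.

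Among genes that respond to thyroid hormone, Dio1 stood out. This deiodinase activates thyroid hormone and is itself a classical target of it. Its signals were 24.02, 10.89, 23.92, 156.3 and 20.57 in old dwarf and 4687, 953.4, 3662, 4399 and 1863 in young wild type, with no overlap, and it was lower by 5.79 log2 (adjusted p = 1.14e-08). The comparison is the sum of the genotype difference at 22 months and of the change in wild type from 4 to 22 months, with which it shares arrays. For Dio1 these were -3.84 and -1.94. Malic enzyme Me1, which supplies NADPH for lipid synthesis, had signals between 1936 and 2963 against values between 9034 and 30690, and was lower by 2.70 (adjusted p = 6.3e-06). The glycerol phosphate dehydrogenase Gpd2 (-1.04, adjusted p = 0.0158) and Bcl3 (-1.11, adjusted p = 0.00457) were lower too, and the amino acid transporter Slc16a10 was higher (0.84, adjusted p = 0.00459). Of 17 tested members 2 were higher, 4 lower and 2 alike. Thrsp (-0.23) and the receptors Thra (-0.22) and Thrb (0.23) passed neither test.

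Some of the largest differences lay outside these hormone lists. Csad, the enzyme that commits cysteine to taurine synthesis, had signals of 518.5, 375.7, 425.3, 430.2 and 322.3 in old dwarf and of 10630, 8587, 11800, 4809 and 5855 in young wild type, and was lower by 4.21 log2 (adjusted p = 9.36e-12). Its genotype difference at 22 months was -2.09 and its change with age in wild type -2.12. Tsc22d1, a regulator of transcription that responds to growth factors, was lower by 3.27 (adjusted p = 3.54e-11), by 3 other probe sets by between 1.84 and 3.64, while 2 further probe sets of low signal did not pass. The serpin pseudogene Serpina4-ps1 was lower by 5.20, and Cd163l1 by 3.34, a scavenger receptor gene whose second probe set gave -0.55 without passing. The transcript 9430083A17Rik was lower by 3.34.

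Higher in old dwarf were Spink1, a trypsin inhibitor (4.22), Lrtm2, a membrane protein with leucine-rich repeats (4.22), and Rgs16, a brake on G-protein signalling (3.72, adjusted p = 0.000979). Serpinb1a, an inhibitor of neutrophil proteases, had signals of 1910, 1077, 2229, 2212 and 1601 against 27.36, 41.65, 31.8, 129.8 and 32.51. It was higher by 4.85 log2 (adjusted p = 1.94e-09), and by 2.52 on its other probe set. These 4 genes did not overlap between the groups. None of the 24 largest differences lost its call under any of the 22 settings tried.

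Genes of detoxification and metal binding divided in both directions. The metallothioneins bind zinc and copper and are induced by metals and glucocorticoids. Mt2 had signals of 17680, 9715, 15200, 16390 and 6173 in old dwarf and of 747.9, 796.3, 737, 1315 and 1097 in young wild type, with no overlap, and was higher by 3.71 log2 (adjusted p = 5.38e-06). Mt1 was higher by 3.47 (adjusted p = 0.000352). Mt2 differed by 1.95 between genotypes at 22 months and by 1.76 between 22 and 4 months in wild type. The 250 bases before the Mt2 start are printed because metallothionein genes are the textbook case of regulation through metal response elements. The core was searched as TGCGCNC or TGCACNC on both strands, and its 3 matches are in capitals, in the RefSeq sequence of GRCm38.p6, plus strand, chr8:94172368-94172617.

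Mt2: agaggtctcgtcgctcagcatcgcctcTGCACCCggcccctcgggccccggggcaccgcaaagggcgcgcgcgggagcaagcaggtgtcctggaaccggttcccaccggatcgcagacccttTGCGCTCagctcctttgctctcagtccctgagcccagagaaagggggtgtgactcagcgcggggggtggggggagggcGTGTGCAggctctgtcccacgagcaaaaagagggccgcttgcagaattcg

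At least 1 match was found in 27.9% of 12339 promoters and 3 or more in 1.95%. The stretch before Mt1, searched in the same way, held only 1. A match is a description of these letters, and binding was not measured.

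Of 33 tested genes of glutathione metabolism and of NRF2, the oxidant-responsive transcription factor, 11 were higher, 6 lower and 11 alike. The glutathione transferases Gsta2 (1.73), Gsta4 (1.32) and Gstt3 (1.26), the quinone reductase Nqo1 (1.72) and the exporter Abcc4 (2.21) were higher. Gstp1 (-1.29) and both subunits of the enzyme that starts glutathione synthesis, Gclc (-0.77, adjusted p = 0.0169) and Gclm (-0.73, adjusted p = 0.00922), were lower. For Gclc and Gclm the genotype difference at 22 months was 0.04 and 0.00, and the change with age in wild type -0.81 and -0.73. Centring on the median left 7 of the list higher, and quantile normalization left 3 lower. Among 29 xenobiotic monooxygenases and receptors 8 were higher, all of them Cyp2b, Cyp2c, Cyp3a or Fmo genes, 2 lower and 9 alike, the last including Cyp3a11, Cyp1a1 and Fmo5. The receptors Nr1i3 (0.55), Nr1i2 (0.40) and Ahr (0.30) passed neither test. Quantile normalization made 12 of this list higher, and median centring 5, with 3 alike.

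Of 14 antioxidant enzymes 8 were alike, among them Sod2, Gpx4, Prdx2, Prdx3, Prdx4 and Txn1. Sod1, the superoxide dismutase of the cytosol, had signals of 8010, 10160, 12100, 7672 and 12340 in old dwarf and of 15170, 21750, 18870, 18080 and 14810 in young wild type. The groups did not overlap and Sod1 was lower by 0.83 log2 (adjusted p = 0.00618). At 22 months it differed by -0.01 between genotypes, while in wild type it fell by 0.82 from 4 to 22 months. Gpx1 (-0.41) and catalase, Cat (-0.36, adjusted p = 0.0337), were lower, and Gpx3 (1.16) and the mitochondrial thioredoxin Txn2 (0.53) higher. Under quantile normalization 1 member was lower rather than 3. Without dwarf 22 months replicate 1 or 3, or wild type 4 months replicate 5, 1 was higher, and 0 without wild type 4 months replicate 2.

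In amino acid and glucose metabolism the called genes were mostly higher. Of 20 tested genes of methionine and one-carbon metabolism 6 were higher, 1 lower (Csad) and 10 alike. Cth, which makes cysteine from cystathionine, was higher by 1.11 log2 (adjusted p = 1.64e-05), with signals of 23500 to 29170 in old dwarf and of 8019 to 15780 in young wild type, and the synthase Mat1a by 0.45 (adjusted p = 0.0237). Gnmt, Bhmt, Ahcy and Cbs were alike. Without dwarf 22 months replicate 1 or wild type 4 months replicate 3, 3 of the list were higher, and 3 under median centring. Of 18 gluconeogenic genes 5 were higher, 0 lower and 7 alike. The coactivator Ppargc1a, which drives fasting glucose output, was higher by 1.69 (adjusted p = 1.39e-05), the transaminase Got1 by 1.15 and Pck1, the gatekeeper of glucose synthesis, by 0.75 (adjusted p = 0.0177). Median centring left 3 gluconeogenic genes higher. Of 13 genes of the urea cycle 8 were alike, among them Cps1, Otc, Arg1 and Asl, while 5 were alike without wild type 4 months replicate 1. Only 1, Oat, was higher, and 7.69% called is near the 7.42% of all genes.

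Genes of lipid metabolism were called in both directions within each list. Of 36 genes of fatty acid oxidation and PPAR alpha targets 3 were higher, 9 lower and 8 alike, with a median of -0.27. Plin2, which coats lipid droplets, was lower by 1.32 log2 (adjusted p = 6.19e-05), the fatty acid carrier Fabp1 by 0.93 (adjusted p = 1.63e-05), the hormone Fgf21 by 2.16 (adjusted p = 0.0246) and the thiolase Acaa1b by 0.78 (adjusted p = 0.00362). The enzymes Acadm, Acadvl, Hadha and Hadhb, which carry out the oxidation of fatty acids in mitochondria, were alike. Without wild type 4 months replicate 4, 5 of the list were lower. In bile acid synthesis and transport 5 of 28 genes were higher, 7 lower and 11 alike. Cyp39a1, a hydroxylase of the alternative pathway, was higher by 3.20 (adjusted p = 1.71e-05) and the sterol hydroxylase Cyp8b1 lower by 0.81 (adjusted p = 0.0246). Baat, Abcb11 and Slc10a1 were alike, and Cyp7a1, the first enzyme of the classical pathway, passed neither test (0.47). Quantile normalization left 4 of the bile acid list lower, median centring 3 higher and 6 alike, and leaving out dwarf 22 months replicate 3 left 7 alike. Of 24 fatty acid synthesis genes Scd2 was higher (2.91), Me1 and Elovl5 lower and 6 alike, while Fasn (-0.23), Scd1 (-0.56) and Srebf1 (-0.19) passed neither test. Shares alike were 22.2% in fatty acid oxidation and 25% in fatty acid synthesis, below the 28.7% of all genes. Called were 33.3% and 12.5%, beside 7.42% of all genes.

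Abundant genes of the liver were lower by small amounts that depended on the scaling. Of the 100 genes of highest signal 89 had a difference below 0, with a median of -0.31 log2 beside 0.04 for all genes, and 38 were called lower. Small falls of bright genes, in this and the other lists, stand beside that common shift, and its part in them was not tested. Of 18 lipoprotein genes 8 were lower, 1 higher and 6 alike, with a median of -0.35, but under quantile normalization 1 was lower and 2 higher and the median was 0.05. Apoa4 (-1.04, adjusted p = 0.0226) and Apoc3 (-0.45, adjusted p = 0.00928) were among those lower, and the receptor Scarb1, which takes up HDL cholesterol, was higher by 0.79 (adjusted p = 0.000194). Leaving out any 1 array of the 10 except wild type 4 months replicate 4 left 4 or 5 lower. Of 52 genes of oxidative phosphorylation 15 were lower, 0 higher and 36 alike, 3 of these last also called, with a median of -0.22. Ndufb3, a subunit of complex I, had signals of 3276, 3545, 3667, 3205 and 2855 in old dwarf and of 4849, 5133, 5030, 4733 and 4214 in young wild type, and was lower by 0.53 log2 (adjusted p = 0.00242). Its genotype difference at 22 months was 0.08 and its change in wild type from 4 to 22 months -0.62. The median of the list was 0.08 between genotypes at 22 months and -0.31 for wild-type ageing. In oxidative phosphorylation quantile normalization left 5 lower, with 1 higher, and median centring left 10 lower and 19 alike. Leaving out dwarf 22 months replicate 1 or 5, or wild type 4 months replicate 1, left 9 lower, and leaving out wild type 4 months replicate 2 left 8.

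**Figure D4:**
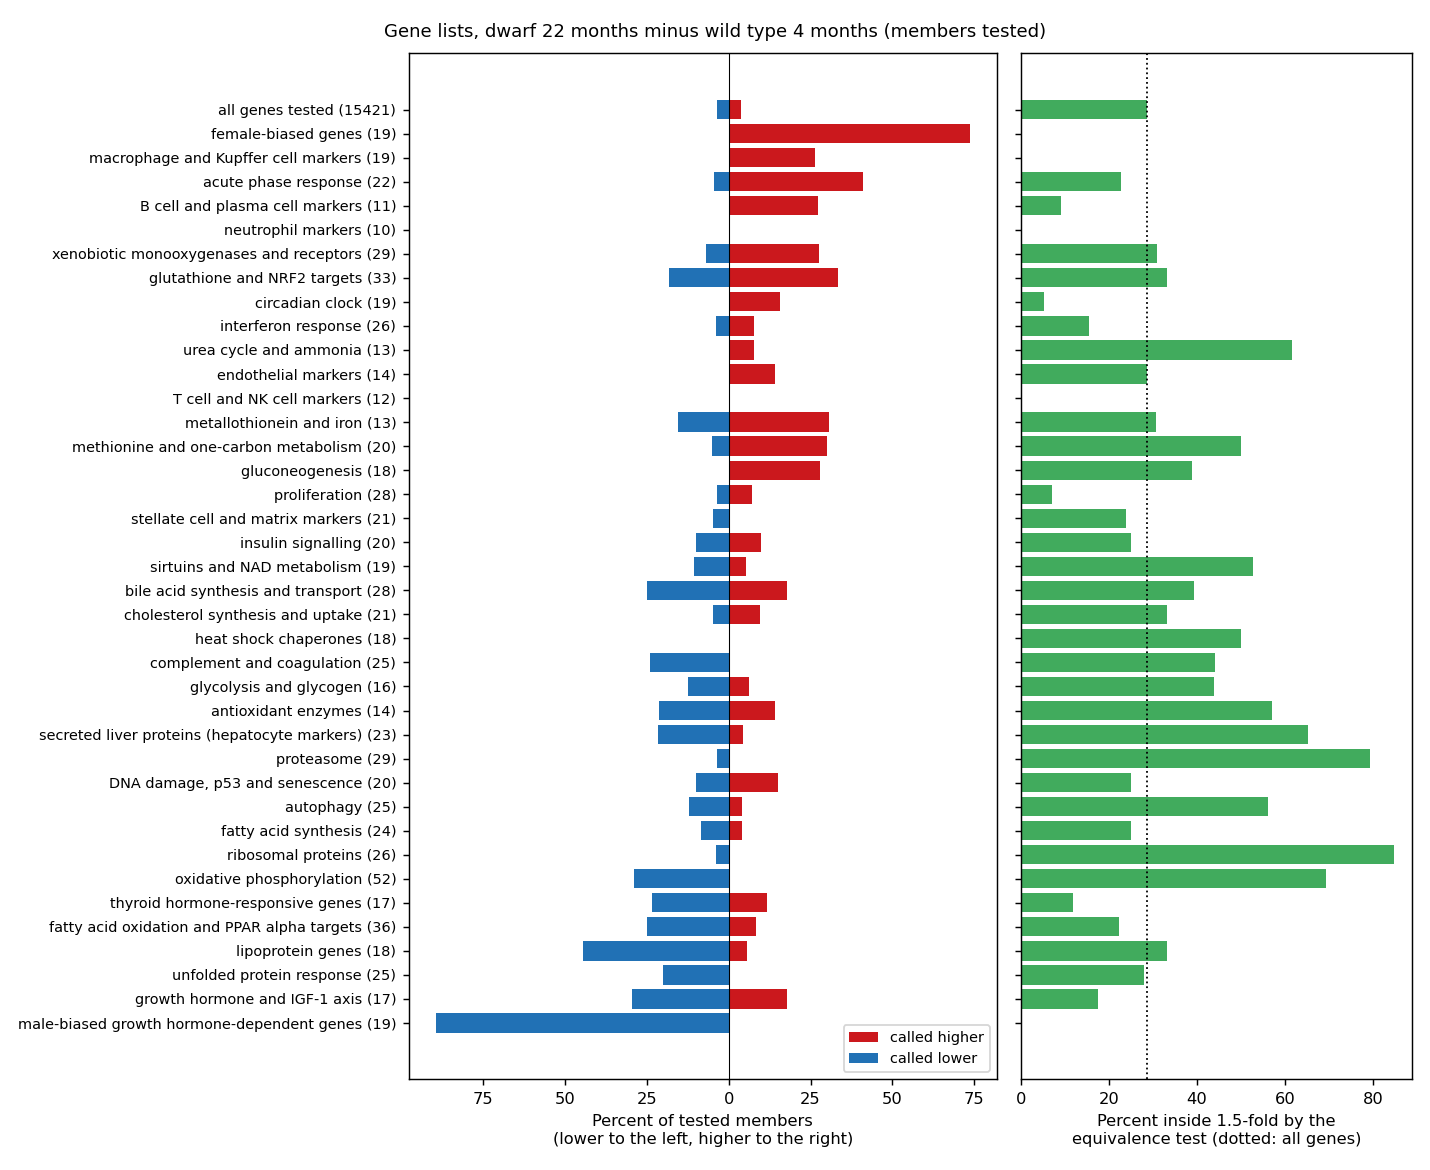
For each gene list with at least 10 tested members, the percent called lower (left, blue) and higher (right, red) in old dwarf against young wild type, and the percent alike (green), with all genes in the top row and as the dotted line at 28.7%. Male-biased and female-biased genes stand at the 2 ends with none alike, and ribosomal proteins (84.6%) and the proteasome (79.3%) have the largest share alike under the main scaling.

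Called acute phase transcripts were mostly higher in the old dwarf liver. Lcn2, an iron-sequestering protein of the acute phase, had signals of 2227, 3176, 3273, 8998 and 2179 in old dwarf and of 170.9, 136.1, 288.1, 247 and 203.4 in young wild type, with no overlap, and was higher by 3.97 log2 (adjusted p = 1.83e-05). Its genotype difference at 22 months was 0.15 (adjusted p = 0.937) and its change with age in wild type 3.82. Saa3 (1.10), Orm2 (1.74, adjusted p = 0.0466), Steap4 (1.36) and the receptors Cd14 (1.82) and Il1r1 (1.56) were also higher, and the haem carrier Hpx was lower (-0.38). Of 22 acute phase genes 9 were higher, 1 lower and 5 alike, among them haptoglobin, Hp, and Crp. Without dwarf 22 months replicate 4, the highest in Lcn2, 5 were higher, and 5 under median centring. Of 25 complement and coagulation genes 0 were higher, 6 lower and 11 alike. These were C9 (-1.61), C8b (-1.13), C6 (-0.89), F11 (-0.87), C8g (-0.52) and F12 (-0.49), and for F11 and C8b the genotype difference at 22 months was -1.26 and -1.29. Without dwarf 22 months replicate 2, 7 of the list were alike.

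Markers of other cell types were read beside these values, and in whole liver a larger number of cells cannot be told apart from more RNA per cell. Of 19 macrophage and Kupffer cell markers 5 were higher (Lyz1 1.38, Lyz2 1.07, Cd68 0.69, Vsig4 0.53, Ctss 0.53), 0 lower and 0 alike. The defining markers Adgre1 (-0.09) and Clec4f (0.26) passed neither test. The summed signal of the list ran from 14900 to 27310 in old dwarf and from 12910 to 22260 in young wild type, and without dwarf 22 months replicate 5 or wild type 4 months replicate 5, 2 were higher, as under median centring, and 3 without wild type 4 months replicate 1. Among 11 B cell and plasma cell markers Igha, the heavy chain of IgA, had signals of 828.9, 1249, 1576, 813.3 and 1494 against 425.9, 434.5, 404.6, 311.3 and 372, and was higher by 1.53 (adjusted p = 0.00047). Jchain, which joins IgA units, was higher by 1.23 (adjusted p = 0.00336). In all, 3 of these 11 were higher. Their summed signal ran from 12260 to 18650 and from 9566 to 10710. Igha and Jchain reached at most 1576 and 978.4 in old dwarf, so most of that sum came from other members, and it is not read as plasma cell signal. None of 12 T and NK cell markers and none of 10 neutrophil markers was called by limma, and summed signals of the neutrophil list overlapped (2313 to 4370 and 2093 to 2957). Of 7 cholangiocyte markers 2 were higher (28.6% called, beside 7.42% of all genes), of 14 endothelial markers 2 (14.3%), and of 21 stellate cell markers 1 was lower (4.76%). Shares of the macrophage and B cell lists were 26.3% and 27.3%. Of 4 tested red blood cell markers 1 was lower, 0 higher and 0 alike, with a median of -0.01 log2. The 1 lower was Alas2, a gene of haem synthesis in red cells (-1.98, adjusted p = 0.000172), while Hba-a1 (-0.55) did not pass. The part of these cells in the acute phase differences was not tested.

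Of protein folding genes 5 of 25 members of the unfolded protein response were lower, 0 higher and 7 alike: Syvn1 (-0.89), Dnajb9 (-0.73), the chaperone Hspa5 (-0.57), Xbp1, which is spliced in the response, and Calr (-0.49). Without wild type 4 months replicate 4, 9 were lower, and 3 under quantile normalization, without dwarf 22 months replicate 1, 2 or 5, or without wild type 4 months replicate 2, 3 or 5. Of 18 heat shock chaperones 9 were alike and 0 were called by limma, 0 also under quantile normalization and median centring, while 1 was called without dwarf 22 months replicate 2 or 3 or wild type 4 months replicate 3 or 4. In the circadian clock Usp2 (3.11, adjusted p = 0.0124), Per1 (2.12) and Tef (1.09) were higher, 0 of 19 lower and 1, Hlf, alike. The time of day at which livers were taken is not in the labels, and these genes cycle over the day. Of 20 genes of DNA damage and senescence 3 were higher (Gadd45b 1.59, Igfbp5 0.99, Sesn1 0.52), 2 lower (Gadd45g -1.95, Cdkn2a -1.12) and 5 alike, and Cdkn1a (-0.74) passed neither test. The Cdkn2a signals of old dwarf, 38.06 to 135.2, lay below the 40th percentile of their arrays, where signals are noisy. Of 20 insulin signalling genes Ppargc1a and the receptor Insr (0.45) were higher, Pik3r1 (-0.67) and Gsk3b (-0.54) lower, and Foxo1, Mtor and Akt2 were among 5 alike. In both the DNA damage and the insulin list 25% were alike, below the 28.7% of all genes. Called were 25% and 20%, beside 7.42% of all genes.

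Among the gene lists, ribosomal proteins and the proteasome, which make and degrade protein in all cells, had the highest shares of alike genes under the main scaling. Of 26 ribosomal protein genes 22 were alike (84.6%) and of 29 proteasome subunits 23 (79.3%), beside 28.7% of all genes. These genes have high signal, at which more genes could be called alike, and median centring left 5 ribosomal proteins and 16 proteasome subunits alike, and leaving out wild type 4 months replicate 4 left 14 ribosomal proteins. Of 23 secreted liver proteins and hepatocyte regulators 15 were alike, among them Hnf4a, Ahsg, Fga, Fgb, Fgg and Tdo2. The regulators Cebpa (-0.49) and Foxa1 (-0.99) were lower and the urate oxidase Uox higher (0.43). Alb, Ttr and Serpina1c were called lower too, but within each of the 10 arrays the highest of these 3 signals was only 0.995% to 8.44% above the lowest, so they moved with the array and their differences are not read as levels of each transcript. In that list quantile normalization gave 5 higher and 1 lower, and leaving out dwarf 22 months replicate 1, 2 or 4, or wild type 4 months replicate 1 or 3, left 3 lower. Of 25 autophagy genes 14 were alike, among them Atg5, Atg7, Becn1 and Sqstm1, although median centring left 8, and Map1lc3a was lower by 0.75 (adjusted p = 1.78e-05). Of 19 genes of sirtuins and NAD metabolism 10 were alike, including Sirt2, Sirt3, Sirt7 and Parp1, while Nampt, which recycles nicotinamide, was higher by 0.83 (adjusted p = 0.0322).

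The 8 genes placed closest were Mtx1, Rab7, Kat2b, Atp5g2, Ndufa9, B230219D22Rik, Cse1l and Cmc1. Rab7, a GTPase of late endosomes, had signals of 4482, 5055, 6256, 5728 and 4959 in old dwarf and of 5164, 5604, 5607, 4510 and 5495 in young wild type. Its difference was 0.00 log2, with a 90% interval from -0.15 to 0.15. Cse1l, a nuclear export factor, had 1569, 1574, 1738, 1508 and 1434 against 1429, 1816, 1513, 1662 and 1420, also a difference of 0.00. For all 8 the interval lay inside 0.17 log2 in either direction. Mtx1, a protein of mitochondrial import, had a second probe set at -0.36 (adjusted p = 0.0911), so for it the likeness stands for 1 probe set, and Atp5g2 lost the call when probe sets were averaged.

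Genes that differ between genotypes at 10 months were read on arrays that took no part in choosing them. Of the 955 genes called at 10 months (6.19%), 514 were higher in dwarf (3.33%) and 441 lower (2.86%). In old dwarf against young wild type 224 of these were higher (43.6%, beside 3.85% of all genes), 0 lower and 106 alike (20.6%, beside 28.7% of all genes), and their median was 0.49 log2 where it had been 0.71 at 10 months. Of the 441 lower at 10 months 216 were lower (49%, beside 3.57% of all genes), 0 higher and 68 alike (15.4%), with medians of -0.51 and -0.80. Both shares of alike genes lie below that of all genes. Over both directions 440 of the 955 were called in the same direction and 174 were alike. These counts depended on the arrays. Without all 4 arrays of high Xist, 671 genes were chosen, 316 of them called in the same direction and 116 alike. Leaving out dwarf 10 months replicate 1 gave 784, 399 and 127, and leaving out replicate 2 gave 690, 368 and 108. Median centring gave 708, 339 and 66. A median is expected to shrink when genes are chosen by their size in one comparison and read in another, so the smaller value is a description only.

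Among the genes alike here although higher in dwarf at 10 months were Mea1, Nbdy, Gldc, Cyp2d26, Mtmr2 and Ccnd3. Gldc, the glycine cleavage enzyme, had signals of 6959, 4934, 4766, 5742 and 3115 in old dwarf and of 5391, 4630, 5215, 4212 and 4422 in young wild type, a difference of 0.05 log2, where it had been 0.79 at 10 months. The 2 groups overlapped, with dwarf 22 months replicate 5 the lowest of all and replicate 1 the highest. Gldc was alike in all 22 settings. Cyp2d26, a cytochrome P450, differed by 0.31, and its arrays did not overlap (26350 to 28440 against 20690 to 24120): it was alike only in the sense of lying inside 1.5-fold, and lost that call in 15 of 22 settings. Alike although lower in dwarf at 10 months were Zfp445, Cnp, Acsm1, Fgfr3, AW112010 and Dhrs1. Fgfr3, a receptor of fibroblast growth factors, had 937.8, 1133, 1028, 990.2 and 770.6 against 786.6, 1017, 1123, 870.8 and 1002, a difference of 0.02 where it had been -0.78, and the reductase Dhrs1 differed by -0.08 where it had been -0.77. Both were alike in all 22 settings, whereas AW112010 lost the call in 11 and Zfp445 in 10.

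Genes of wild-type ageing were treated the same way. Between 10 and 22 months 70 genes were called in wild type (0.454%), 22 higher (0.143%) and 48 lower (0.311%) with age. Of the 22, 5 were higher in old dwarf against young wild type (22.7%, beside 3.85% of all genes), 1 lower and 0 alike (beside 28.7% of all genes), with a median of 0.53 log2. Of the 48, 16 were lower (33.3%, beside 3.57% of all genes), 0 higher and 11 alike (22.9%, below the 28.7% of all genes), with a median of -0.33. The 6 named by rank among the alike were C77080, Ywhab, Tatdn1, Mmut, Nek7 and Gm12338. Ywhab, an adaptor of the 14-3-3 family, had signals of 12770, 13950, 12880, 11480 and 10890 in old dwarf and of 13170, 13330, 11390, 14030 and 12490 in young wild type, a difference of -0.06. Old wild type was split, with 13130 and 13620 on replicates 1 and 2 and between 4762 and 7459 on the others. Since these genes were chosen for being low in old wild type, their genotype difference at 22 months is no test. Mmut, the methylmalonyl-CoA mutase, differed by 0.16 here, but was alike in only 11 of 22 settings, and its other probe set was called higher (0.35, adjusted p = 0.0498). Tatdn1, a nuclease, averaged 638 in old dwarf, 702 in young and 442 in old wild type, and was alike in 21 of 22 settings. Another probe set of similar signal (705.9 against 445.2) gave 0.63 (adjusted p = 0.101), and those of lower signal gave 0.06, 0.07 and 0.19. The likeness was therefore not shared by all its probe sets. The number of ageing genes depended on single arrays: leaving out wild type 22 months replicate 1 or 2 raised it from 70 to 226 or 211, and leaving out wild type 10 months replicate 3 left 3.

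A comparison chosen after the data were seen has the ages exchanged: dwarf at 4 months against wild type at 22 months. It keeps the genotype difference, turns the age difference round and shares no array with the present one, although both use the same estimate of each gene's spread. It gave 2124 calls (13.8%), 8.14% of genes higher and 5.64% lower. Of the 594 genes higher in old dwarf against young wild type, 220 (37%) were also higher in young dwarf against old wild type, and 16 (2.69%) were lower. Of the 551 lower, 192 (34.8%) were also lower and 36 (6.53%) were higher. Both shares in the opposite direction lie below those of all genes. Genes of the same direction are those already described, from Sult2a2 (8.45 and 7.50 log2) and Cyp4a14 (4.78 and 6.47) to Mup10 (-4.73 and -7.87) and Igf1 (-1.82 and -2.91).

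The genes of opposite direction are therefore named as a description, not as a class. The 16 that were higher in old dwarf and lower in young dwarf included Lcn2 (3.97 and -2.60), Saa3 (1.10 and -1.23), Igha (1.53 and -1.18), Jchain (1.23 and -1.33), the zinc transporter Slc39a14 (0.51 and -0.39) and Igfbp5 (0.99 and -0.72). The 36 that were lower in old dwarf and higher in young dwarf included Sod1 (-0.83 and 0.86), Acaa1b (-0.78 and 0.95), Cebpa (-0.49 and 0.49) and the epoxide hydrolase Ephx2 (-0.44 and 0.37). Among the 15 genes of oxidative phosphorylation called lower, Atp5g3, Atp5d, Ndufb9, Cox6b1, Cox7a2, Cox5a, Ndufa1, Cox6a1, Ndufs8 and Cox4i1 were higher in young dwarf against old wild type. Atp5g3, a subunit of the ATP synthase, had -0.40 (adjusted p = 0.0038) and 0.52 (adjusted p = 5.58e-05). Without wild type 22 months replicate 2 the counts of genes in the same and the opposite direction were 477 and 62, where all arrays gave 412 and 52, and without dwarf 22 months replicate 1 they were 317 and 40.

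**Figure D5:**
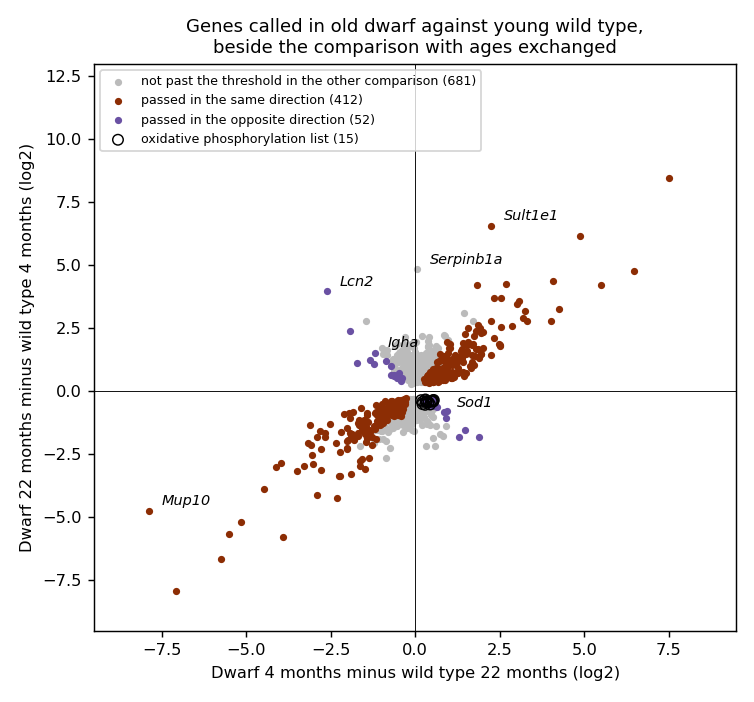
The 1145 genes called in old dwarf against young wild type (vertical, log2), plotted by their difference in young dwarf against old wild type (horizontal, log2), on other arrays. Brown points (412) passed in the same direction there, purple points (52) in the opposite direction and grey points (681) did not pass; rings mark the 15 genes of oxidative phosphorylation, all right of zero below zero.

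A direct test asked in which genes old dwarf against young wild type departs from the genotype difference at 10 months. It passed for 3 genes (0.0195%), all less negative or more positive here and 0 the other way, while 1338 genes had an unadjusted p under 0.05. Igfals has been described. Mup10 differed by -7.73 log2 at 10 months and by -4.73 here, 3.00 apart (SE 0.56, adjusted p = 0.0355), and within dwarf it rose by 3.32 from 4 to 22 months (adjusted p = 1.95e-05): its signal averaged 30.2 in dwarf at 4 months and 485 ± 294 at 22 months (SD, n = 5), still far below the 11950 of young wild type. Serpinb1a differed by 1.30 at 10 months and by 4.85 here, 3.55 apart (SE 0.61, adjusted p = 0.0277). Its change in wild type from 4 to 22 months was 3.50, and young dwarf and old wild type differed by 0.06. The test rested on single arrays: no gene passed without dwarf 22 months replicate 3 or 5, without dwarf 10 months replicate 1 or 2, without wild type 10 months replicate 4 or 5, or without wild type 4 months replicate 2, by limma. Dwarf 10 months replicate 1 is the array with both Xist and Eif2s3y signal. There were 6 that passed without dwarf 22 months replicate 1, and 3 without all 4 arrays of high Xist.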

How the data were processed

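Total RNA from about 10 mg of snap-frozen mouse liver was biotin-labelled and hybridised to Affymetrix arrays, per the labels' protocols. The deposited values are signal intensities on a linear scale made with MAS5, per the submitters' processing notes; for its version and target, not given in the sources used here, nothing was assumed. MAS5 weighs mismatch probes, which makes low signals noisy. Organism, source and title name mouse liver, which was used, although one label text mentions a fly tissue.

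From these values each array was scaled to a 2% trimmed mean of 500 (factors 1.008 to 1.011), 16 was added and log2 taken, so that folds of low genes are understated. Array medians ran from 168.1 to 227.2. Of the 45037 probe sets, 34945 have 1 gene symbol, 932 several and 9160 none in the platform table. Those above their array's 40th percentile on at least 5 arrays were kept (33908), and a gene was represented by its brightest probe set on average. All adjusted p-values of genes are from limma 3.58.1 in R 4.3.3, with a mean for each of the 6 groups over all 31 arrays, a mean-variance trend and Benjamini-Hochberg adjustment over all genes at 0.05. No p was adjusted over a list alone. The number of arrays limits the precision. A p-value from limma sets a difference against the spread between arrays within groups, where each array is 1 animal. Pairs of arrays with identical values numbered 0.

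Named genes were the 12 largest rises and 12 largest falls without overlap, the 8 placed closest, up to 6 a direction alike here but called at 10 months or in wild-type ageing, all that departed from the 10-month difference, and list members. The comparison, members and lists were chosen with earlier results of these data known. The lists (44, with 828 different genes tested) overlap in part. On simulated data for this comparison, over 15421 genes, limma recovered 22%, 60%, 90% and 100% of genes shifted by 0.5, 1, 2 and 4 log2, and 0 genes shifted by 1 or more were called alike. Alternatives covered scaling, pseudocount, filter, probe set rule, trend, array weights, groups fitted, the margin and each array left out. Promoters came from RefSeq: 18 of the 26 named genes searched had one listed.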

Additional observations from a re-analysis of the deposited data

Results flagged for a closer look

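In groups of 5 or 6 arrays, 110 sets of values of named genes and distances were examined for 1 array far from the others, and 10 were found, where chance gives about 1 in 20, or 5.5. Wild type 4 months replicate 4 accounted for 4. Its signal was 129.8 for Serpinb1a (others 27.36 to 41.65), 506.9 for Hsd3b5 (others 10690 to 17420), 3754 for Slco1a1 (others 9089 to 12760) and 1068 for Cnp (others 1410 to 1560). Dwarf 22 months replicate 4 had 8998 for Lcn2 (others 2179 to 3273) and 156.3 for Dio1 (others 10.89 to 24.02). Dwarf 22 months replicate 5 had 7240 for Ndufa9 (others 7734 to 7870) and 1639 for Nek7 (others 2475 to 2843). Dwarf 22 months replicate 1 had 8414 for Xist (others 14.12 to 30.46). Wild type 22 months replicate 1 lay 0.5867 from young wild type (others 0.6593 to 0.6989).

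For 3 genes the difference between old dwarf and young wild type departed from the genotype difference at 10 months by limma's test of the difference: Igfals by 1.882, Mup10 by 3.002 and Serpinb1a by 3.552 log2.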

How the results depend on the processing

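No paired analysis was possible because each group holds other animals and no number links them. The count of 1145 genes called ran from 891 to 1248 over the alternatives of processing and from 862 to 1256 with 1 array of the series left out, and no named gene reversed. The 4419 alike genes became 0 at the narrower margin tried and 10428 at 2-fold. At 1.5-fold the count ran from 3546 under median centring to 5704 with a pseudocount of 64. It ran from 3601 to 3896 with 1 of the 10 arrays of the comparison left out. The 3 genes departing from the 10-month difference became 0 under median centring and with no mean-variance trend, 5 with a pseudocount of 64, with no filter, with the mean of probe sets and with array weights, 6 with the 60th percentile filter, 8 with only the groups compared, and 0 to 6 with 1 array of the groups left out. Ageing genes with the same direction (21) became 43 with no filter, 45 with the mean of probe sets, 37 with no trend, 47 with array weights and 38 with only the groups compared, and 12 to 55 with 1 array left out; where under 50 genes passed, the 200 of smallest p were read instead, which raises the count. Genes passing in the opposite direction with ages exchanged (52) became 33 with only the groups compared. The distance from young wild type, old dwarf against old wild type, differed by 0.012, and this turned to -0.00331 under median centring, -0.000665 with no filter and -0.00523 as a median absolute difference, was 0.05 with the 60th percentile filter, and ran from -0.00383 to 0.0186 with 1 array left out. The distance without genes of the 10-month genotype difference ran from -0.057 to -0.0345. The cause of these shifts was not tested. Low signal also limits likeness: 1 of 3855 genes in the part of lowest signal was called alike.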
